A study of Mus musculus with 62 samples.

Results

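*Hba-a1*, *Hba-a2* and *Alas2* were followed in the mouse heart with and without RPL3L, the form of ribosomal protein L3 that is made in heart and skeletal muscle. The 3 genes were taken by symbol from a table of read counts with 10476 gene names and 23877 transcripts, in which they have 4 transcripts, and 1 transcript per gene was used. WT (Rpl3l+/+) and KO (Rpl3l-/-) hearts came from male C57BL/6J mice at 10 weeks of age, 4 per genotype, and in the KO mice exon 2 of *Rpl3l* had been deleted in the germ line with CRISPR-Cas9, so that the deletion is present in all cells. Whole hearts were flash frozen, and whether they had been perfused free of blood is not given in the sources used here. RNA-seq gave the abundance of each mRNA, Ribo-seq the fragments protected by single ribosomes, and Disome-seq the longer fragments protected by a pair of stacked ribosomes. C2C12 cells, a mouse myoblast line, had been infected with an empty retrovirus (control) or made to overexpress RPL3 (RPL3 OE) or RPL3L (RPL3L OE), with 3 cultures each, and serve here as muscle cells grown without blood.

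Hemoglobin carries oxygen in red cells and is built of alpha and beta globin chains, each holding a heme group. *Hba-a1* and *Hba-a2* are the adult alpha globin genes of the mouse, and *Alas2* encodes the erythroid form of 5-aminolevulinate synthase, which makes the first precursor of heme in mitochondria. Mature red cells of mammals have no nucleus, whereas reticulocytes, the young red cells that enter the blood, still hold globin mRNA and ribosomes. Translation of *Alas2* mRNA is controlled by an iron-responsive element, a hairpin in its 5′ untranslated region to which iron regulatory proteins bind when iron is scarce. In a bulk sample of tissue, more cells of a type and more RNA per cell cannot be told apart.

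The alpha globin genes lie on the plus strand of chromosome 11 in GRCm38, *Hba-a1* at chr11:32283511-32284465 and *Hba-a2* at chr11:32296489-32297298. Each has 3 exons and a coding sequence of 429 bases with the stop codon. Their coding sequences differed at 1 base, C381T, counted from the A of the start codon with the *Hba-a1* base first. The base falls in codon 127, GAC in *Hba-a1* and GAT in *Hba-a2*, which both encode aspartate. The stretch around it in exon 3 is shown because it holds the only coding letters that tell the genes apart, with the codon in capitals, at chr11:32284323-32284361 and chr11:32297140-32297178.
Hba-a1: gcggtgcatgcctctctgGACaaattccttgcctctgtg
Hba-a2: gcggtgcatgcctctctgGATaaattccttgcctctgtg
Over the 538 bases that both annotated mRNAs share, from the shorter 5′ end to the shorter 3′ end, this was the 1 difference. Of all coding windows of 28 bases, the length of a short ribosome footprint, 93.0% were identical in both genes, and no other gene of the table held any such window of *Hba-a1*. The annotated *Hba-a1* mRNA begins 161 bases further upstream than that of *Hba-a2*, and the *Hba-a2* mRNA ends 16 bases further downstream. Of all 28-base windows of the whole mRNA, untranslated parts included, 71.9% of those of *Hba-a1* were found in *Hba-a2* and 91.7% of those of *Hba-a2* in *Hba-a1*. Since the authors allowed multiple mappings, most reads of either gene could count for both, and the values of *Hba-a1* and *Hba-a2* are not independent and cannot be assigned to 1 of them.

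**Figure D1:**
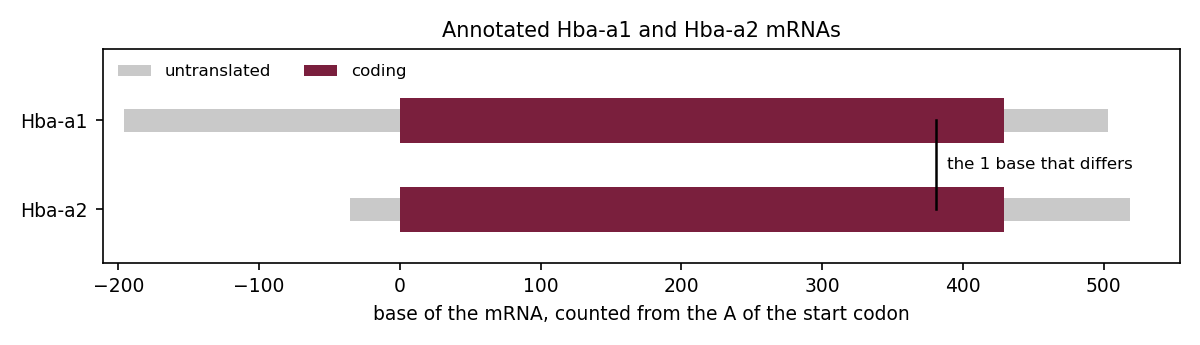
The annotated mRNAs of *Hba-a1* and *Hba-a2* are drawn to scale along the base position counted from the A of the start codon, with coding parts in red and untranslated parts in grey. The single base that differs within the 538 shared bases is marked at 381, and the *Hba-a1* model has 161 more bases at its 5′ end.

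*Alas2* lies on chromosome X at chrX:150547375-150570638 on the plus strand of GRCm38, and the transcript used has 2037 bases. Its 5′ untranslated region of 126 bases held the loop letters of an iron-responsive element, CAGTGN, at 1 place, 25 bases before the start codon. The stretch around the loop is shown because it is the known regulatory element of this mRNA, with the loop in capitals, at chrX:150547458-150547485 in exon 1.
Alas2: ttggttcgtcctCAGTGCagggcaacag
These loop letters alone are common, since 24.5% of 10141 genes of the table with a 5′ untranslated region held them. The table lists a further *Alas2* transcript, whose count equalled or was at most 2 below that of the transcript used in every heart library.

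The windows from 250 bases before to 50 bases after the start of each gene were read from RefSeq (GRCm38.p6), and all 3 members matched. The windows of *Hba-a1* and *Hba-a2* were shifted by 3 bases and were identical over the 297 bases they share. On either strand, the letters AGATAA or TGATAA, a motif bound by GATA factors, occurred once in the window of each member and in 18.6% of 32851 windows of all genes. CCAAT occurred once in each alpha globin window, not in that of *Alas2*, and in 37.4% of all windows. TATAA was found 30 or fewer bases before the RefSeq start of both alpha globin genes, near the far upstream end of the *Alas2* window, and in 24.9% of all windows. CACCC occurred at 2 places in each alpha globin window, at 3 places in that of *Alas2*, and in 57.5% of all windows. No match overlapped one of another motif, and they are matches of letters only. The part of 2 windows that lies before the annotated mRNA is shown because it holds motif matches, given in capitals. It lies at chr11:32296242-32296488 for *Hba-a2* and chrX:150547167-150547374 for *Alas2*, both on the plus strand. Whether these motifs act on the mRNA levels of these hearts was not tested.
Hba-a2 upstream: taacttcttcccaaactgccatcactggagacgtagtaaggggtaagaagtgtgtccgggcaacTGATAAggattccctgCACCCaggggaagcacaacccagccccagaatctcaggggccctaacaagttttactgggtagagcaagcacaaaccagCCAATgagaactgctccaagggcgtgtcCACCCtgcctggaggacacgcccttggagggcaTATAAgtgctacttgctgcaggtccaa
Alas2 upstream: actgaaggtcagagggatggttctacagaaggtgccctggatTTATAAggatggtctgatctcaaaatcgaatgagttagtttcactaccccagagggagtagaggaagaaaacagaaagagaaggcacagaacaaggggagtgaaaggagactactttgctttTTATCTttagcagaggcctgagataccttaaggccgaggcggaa
The matches of CACCC in *Alas2* lie within the annotated mRNA and are not printed.

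The members also differed in the amino acids that their codons specify. Alanine codons made up 20 of the 142 codons of either alpha globin gene without the stop codon, or 14.1%, above 98.6% of 10376 genes. In *Alas2* they made up 50 of 587 codons, or 8.52%, against a median of 6.60% over all genes. Proline codons made up 4.23% of alpha globin and 5.28% of *Alas2* codons, at or below the median of 5.32%.

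Total counts per heart ranged from 3594696 to 22425296 in RNA-seq, with a median of 4789635.5 in WT and 15397962 in KO libraries. They ranged from 1606700 to 3192090 in Ribo-seq, and from 39016 to 175747 in Disome-seq after summing the 2 samples of a replicate number. These 2 samples were taken as runs of 1 heart, which the labels do not state. The deleted gene, *Rpl3l*, had 263 to 383 CPM (counts scaled to a common library size) in WT and 23.0 to 38.1 CPM in KO RNA-seq libraries (transcript ENSMUST00000045186.10). In Ribo-seq the same transcript had 140 to 151 CPM in WT and 5.53 to 11.1 CPM in KO libraries, so that in both assays all 8 hearts matched their genotype labels, whereas Disome-seq libraries were not checked in this way. The sum over 11 cardiomyocyte markers was 47428 to 63407 CPM in WT and 49148 to 64152 CPM in KO RNA-seq libraries. In 6 hearts the RNA-seq library deviated from its group most like the Ribo-seq library of the same number. The exceptions were KO 2, whose RNA-seq library was most like the Ribo-seq library of KO 3 (correlation 0.72 across 6541 transcripts, against -0.64 with its own number), and KO 3, whose RNA-seq library was most like the Ribo-seq library of KO 2 (0.75, against -0.70). Results that join RNA-seq and Ribo-seq are therefore also given without KO 2 and KO 3, a choice made after seeing the data.

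Alpha globin was among the most abundant mRNAs of the hearts, and its mean was 1.31-fold as high in KO as in WT hearts, a difference that did not pass the test given the spread between hearts. In RNA-seq, *Hba-a1* had 2114, 3175, 2665 and 3493 CPM in WT hearts 1 to 4 and 5318, 3908, 2442 and 3385 CPM in KO hearts 1 to 4. KO 1 and KO 2 lay above all WT hearts, KO 3 lay below 3 of them, and the groups overlapped. The means were 2862 ± 604 CPM in WT and 3763 ± 1201 CPM in KO hearts (SD, n = 4). Per length, *Hba-a1* ranked between 5 and 13 of 10476 genes in every heart, with 4094 ± 865 CPM per kilobase of transcript in WT hearts. The log2 fold change of KO over WT was 0.39 (SE 0.20, 95% confidence interval -0.03 to 0.82), with an adjusted p of 1.00 in edgeR's quasi-likelihood test, after Benjamini-Hochberg adjustment over 15394 transcripts.

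*Hba-a2* gave the same picture, as its shared reads require. Its levels were 2754 ± 556 CPM in WT and 3626 ± 1158 CPM in KO hearts (SD, n = 4), with a log2 fold change of 0.40 (SE 0.20). The count of *Hba-a1* exceeded that of *Hba-a2* by 2.03% to 4.67% of the *Hba-a1* count in RNA-seq and by 0.104% to 0.820% in Ribo-seq of hearts.

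*Alas2*, the heme synthesis enzyme, was far less abundant than alpha globin and was ordered in a similar way among the hearts. In RNA-seq it had 42.7, 47.0, 59.7 and 67.5 CPM in WT hearts 1 to 4 and 104.6, 66.9, 48.5 and 67.5 CPM in KO hearts 1 to 4. KO 1 was again the highest and WT 1 the lowest, and the groups overlapped. The means were 54.2 ± 11.4 CPM in WT and 71.9 ± 23.5 CPM in KO hearts (SD, n = 4). The log2 fold change was 0.39 (SE 0.20, 95% confidence interval -0.03 to 0.82, adjusted p = 1.00 in edgeR). Per length, *Alas2* had 26.6 ± 5.61 CPM per kilobase in WT hearts and ranked between 581 and 1248 of 10476 genes.

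None of the 3 members was called in RNA-seq, where 2 of 15394 transcripts, or 0.013%, had an adjusted p under 0.05 and 354 an unadjusted p under 0.05. DESeq2 called 11 transcripts and no member. The unadjusted p-values of the members in edgeR were 0.0644 for *Hba-a1*, 0.0605 for *Hba-a2* and 0.0678 for *Alas2*. In exact permutation tests of the log2 levels (two-sided, smallest possible p = 0.0286), p was 0.257, 0.257 and 0.171 in the same order, and 0.441 for each after adjustment over 12 tests of members and readouts. A single heart set much of the size of the difference, since without KO 1 the log2 fold change fell to 0.18 for *Hba-a1* and 0.15 for *Alas2*. Without KO 2 and KO 3 it was 0.60 for *Hba-a1* and 0.65 for *Alas2*, with adjusted p-values of 1.00 in edgeR.

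**Figure D2:**
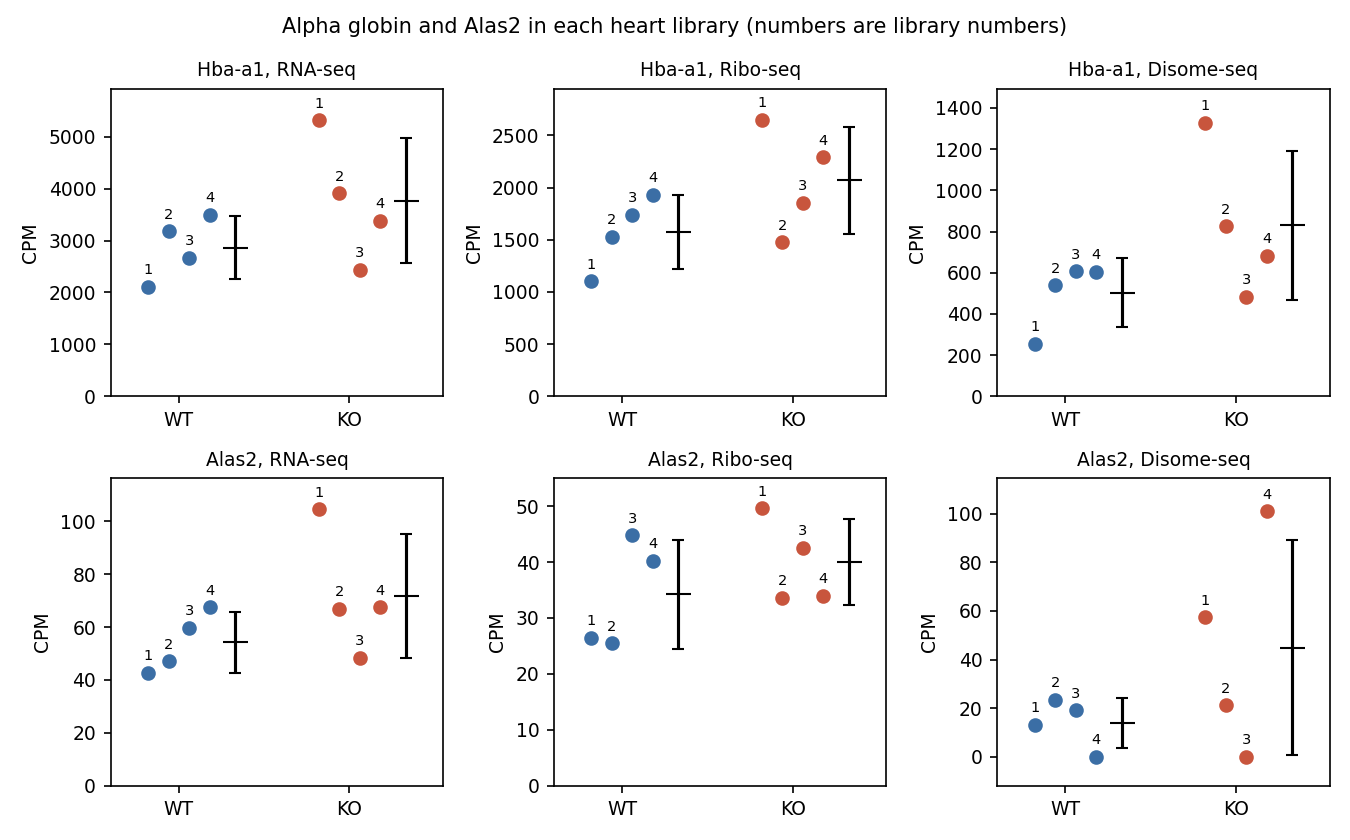
Levels of *Hba-a1* (top) and *Alas2* (bottom) in CPM in each RNA-seq, Ribo-seq and Disome-seq library of WT (blue) and KO (red) hearts are shown by library number, with the mean and SD of each group (n = 4) in black. KO 1 is the highest point in all panels except *Alas2* Disome-seq, where KO 4 is higher, and the genotypes overlap in all 6 panels.

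In Ribo-seq, alpha globin footprints were highest in KO 1 and lowest in WT 1, as the mRNA was, whereas KO 2 lay above all WT hearts in mRNA and below 3 of them in footprints. *Hba-a1* had 1103, 1529, 1739 and 1929 CPM in WT hearts 1 to 4 and 2648, 1477, 1854 and 2292 CPM in KO hearts 1 to 4. KO 1 and KO 4 lay above all WT hearts, KO 3 lay above 3 of them, and the groups overlapped. The means were 1575 ± 355 CPM in WT and 2068 ± 510 CPM in KO hearts (SD, n = 4). Its log2 fold change was 0.39 (SE 0.17, 95% confidence interval 0.02 to 0.76), with an unadjusted p of 0.0391 in edgeR and an adjusted p of 0.274 over 12695 transcripts. *Hba-a2* had 1568 ± 352 CPM in WT and 2062 ± 506 CPM in KO hearts, with a log2 fold change of 0.40 (SE 0.17) and an adjusted p of 0.270 in edgeR.

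*Alas2* footprints came from 55 to 106 counts per heart. They amounted to 26.4, 25.5, 44.8 and 40.2 CPM in WT hearts 1 to 4 and to 49.7, 33.6, 42.5 and 33.9 CPM in KO hearts 1 to 4. KO 1 was the only KO heart above all WT hearts. The log2 fold change was 0.24 (SE 0.19, 95% confidence interval -0.17 to 0.65, adjusted p = 0.568 in edgeR). No member was called in Ribo-seq, against 95 of 12695 transcripts, or 0.748%. Without KO 1 the log2 fold change fell to 0.25 for *Hba-a1* and 0.11 for *Alas2*, and without WT 1 to 0.25 and 0.11. For *Alas2* it was 0.40 without WT 3 (adjusted p = 0.392 in edgeR), and without KO 2 and KO 3 that of *Hba-a1* was 0.65 (adjusted p = 0.169 in edgeR). Adjusted p-values of *Hba-a1* in Ribo-seq lay between 0.169 and 0.527 under all alternatives tried.

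Translational efficiency (TE), the number of footprints relative to mRNA, was close in WT and KO hearts for both kinds of gene, with wide intervals. The ratio of Ribo-seq to RNA-seq CPM of *Hba-a1* was 0.522, 0.481, 0.653 and 0.552 in WT hearts 1 to 4 and 0.498, 0.378, 0.759 and 0.677 in KO hearts 1 to 4. The lowest and the highest ratio were those of KO 2 and KO 3, the hearts whose RNA-seq and Ribo-seq libraries did not deviate together. Whether the numbers of these hearts were exchanged in one of the assays was not tested, and their ratios, those of *Alas2* included, hold only as far as the numbers do. The TE model compares genotypes and has no term for the number. The change of TE was -0.0005 on the log2 scale (SE 0.30, 95% confidence interval -0.63 to 0.63) for *Hba-a1* and -0.0008 (SE 0.30) for *Hba-a2*. Without KO 2 and KO 3 it was 0.053 (SE 0.31) for *Hba-a1*.

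For *Alas2* the ratio was 0.620, 0.542, 0.750 and 0.596 in WT hearts 1 to 4 and 0.475, 0.503, 0.877 and 0.503 in KO hearts 1 to 4. KO 3 was the highest, and the other KO hearts lay below all WT hearts. The change of TE was -0.16 (SE 0.32, 95% confidence interval -0.82 to 0.51, adjusted p = 0.980 in edgeR), and without KO 2 and KO 3 it was -0.33 (SE 0.36, adjusted p = 0.963 in edgeR). With 1 heart left out it ranged from -0.34 without KO 3 to -0.04 without WT 3, and it was -0.05 without KO 1. Of 12483 transcripts, 0 were called for TE by edgeR, or 0%, with 796 at an unadjusted p under 0.05 and 22 called by DESeq2. The intervals allow changes of alpha globin TE up to 0.63 on the log2 scale in either direction.

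Among the 12483 transcripts with a mean of at least 10 counts in both assays, the members had few footprints for their mRNA level. A transcript with little mRNA passed this filter only if it had enough footprints. In WT hearts the log2 ratio of mean Ribo-seq to mean RNA-seq CPM was -0.86 for *Hba-a1*, above 11.0% of 12483 transcripts, and -0.66 for *Alas2*, above 14.3%, where the median transcript had 0.52. Each assay was scaled to its own library size, so that the ratio is relative to the other transcripts. A low ratio was not particular to the members. Of the cardiomyocyte markers, *Tnnt2* (14867 CPM in RNA-seq and 3777 CPM in Ribo-seq, WT means) and *Myl2* (15676 and 4766 CPM) had lower ratios. *Mybpc3* (3046 and 4703 CPM) and *Casq2* (504 and 1240 CPM) had higher ones.

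**Figure D3:**
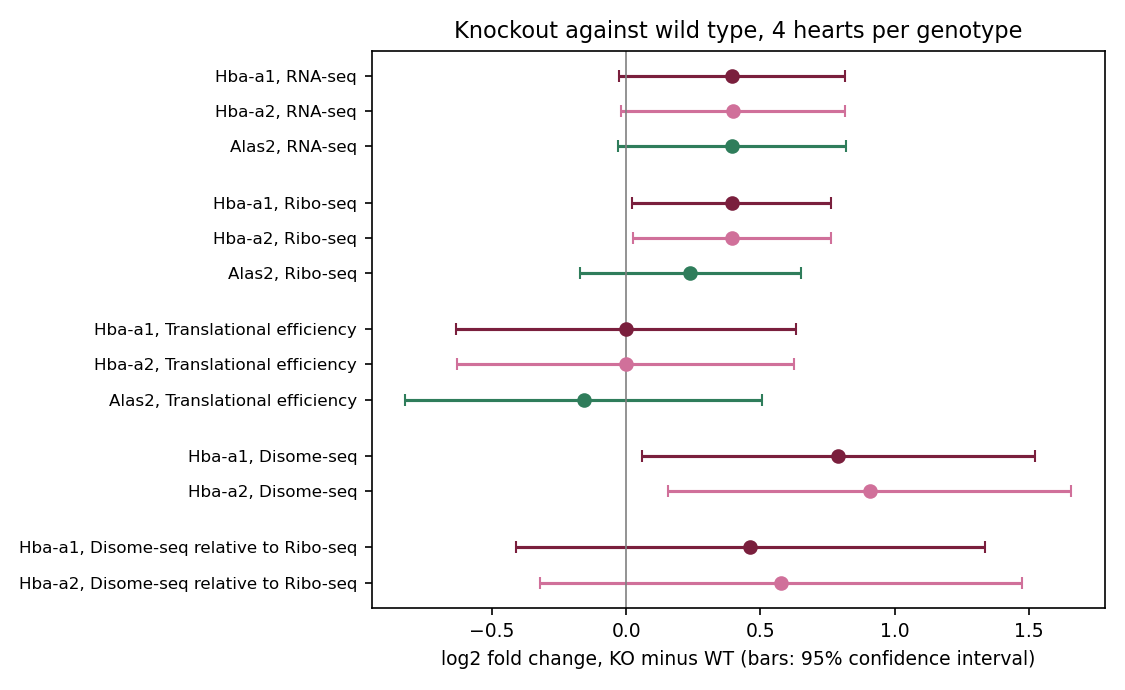
Log2 fold changes of KO over WT (points) with 95% confidence intervals (bars) are shown for each member and readout on a linear axis, with 4 hearts per genotype. The intervals include 0 in RNA-seq, for *Alas2* in Ribo-seq, for TE and for Disome-seq relative to Ribo-seq, and those of alpha globin in Ribo-seq and Disome-seq lie just above 0 before adjustment for the number of transcripts tested.

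Disomes mark places where a ribosome has run into the one ahead. On alpha globin they were counted in all hearts, with 23 to 231 counts of *Hba-a1* per heart. *Hba-a1* had 257, 539, 608 and 606 CPM in WT hearts 1 to 4 and 1328, 825, 484 and 683 CPM in KO hearts 1 to 4. KO 1 was the highest, WT 1 the lowest, and KO 3 lay below 3 WT hearts. The log2 fold change was 0.79 (SE 0.35, 95% confidence interval 0.06 to 1.52) for *Hba-a1*, with an unadjusted p of 0.0358 in edgeR and an adjusted p of 0.934, and 0.91 (SE 0.36) for *Hba-a2*. Of 1365 transcripts tested, 0 were called, or 0%, with 56 at an unadjusted p under 0.05 and 0 called by DESeq2. Without KO 1 the log2 fold change of *Hba-a1* was 0.49. The 2 runs of WT 1 differed from each other beyond counting noise (chi-square per degree of freedom 11.7, against at most 2.31 in the other hearts). With only run 1 or only run 2 of each heart, the log2 fold change was 0.86 or 0.81.

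Relative to Ribo-seq, the disome level of *Hba-a1* was 0.233, 0.352, 0.350 and 0.314 in WT hearts 1 to 4 and 0.501, 0.559, 0.261 and 0.298 in KO hearts 1 to 4. KO 1 and KO 2 lay above all WT hearts, and KO 3 and KO 4 lay within their range. These ratios join libraries by number and hold only as far as the numbers do. The change was 0.46 on the log2 scale (SE 0.42, 95% confidence interval -0.41 to 1.34, adjusted p = 0.746 in edgeR) for *Hba-a1* and 0.58 (SE 0.43) for *Hba-a2*, and without KO 1 it was 0.30 for *Hba-a1*. Here 0 of 1365 transcripts were called, or 0%, with 123 at an unadjusted p under 0.05 and 25 called by DESeq2, none of them a member. In WT hearts, the log2 ratio of disomes to footprints was -1.65 for *Hba-a1*, above 1.68% of the 1365 transcripts, whose median was 0.27. These transcripts had a mean of at least 10 counts in both assays. Transcripts with few footprints therefore entered only with many disomes for them, which bears on this rank.

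*Alas2* disomes were too few to compare, with 2, 1, 2 and 0 counts in WT hearts 1 to 4 and 10, 2, 0 and 4 counts in KO hearts 1 to 4. The gene did not reach the mean count of 10 required for the test. A difference of *Alas2* disomes was not detectable at this depth, where 3 counts correspond to 17.1 to 76.9 CPM.

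Across the 8 hearts, *Hba-a1* and *Alas2* mRNA varied together. On the log2 scale, Pearson's r was 0.91 (exact permutation p = 0.00357, adjusted p = 0.025 over 7 relations) and Spearman's rho was 0.83 (exact permutation p = 0.0154, adjusted p = 0.108). The values of both genes come from the same libraries. In this and the other relations, WT and KO hearts were pooled and genotype was not taken into account. Both genes had a log2 fold change of 0.39 between the genotypes in RNA-seq, and its part in r was not tested. Without KO 1 and WT 1, the hearts farthest from the median of *Alas2*, r was 0.65 (exact permutation p = 0.153, n = 6). The relation was therefore not found at p under 0.05 without those hearts. Leaving out the farthest hearts also narrows the range of values, so that this cannot tell how far the relation rests on them. Without KO 2 and KO 3, r was 0.90 (exact permutation p = 0.0222, n = 6). Of 4916 other genes with a mean RNA-seq count of at least 50, 1 had a higher r with *Hba-a1* than *Alas2* had. In Ribo-seq, r was 0.73 (exact permutation p = 0.0398, adjusted p = 0.0832) and rho was 0.69 (exact permutation p = 0.0694, adjusted p = 0.214). Without WT 1 and WT 2, r in Ribo-seq was 0.45 (exact permutation p = 0.386). In Disome-seq, r was 0.36 (exact permutation p = 0.387, adjusted p = 0.452) and rho was 0.65 (exact permutation p = 0.0918, adjusted p = 0.214), and *Alas2* counts were at most 10.

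**Figure D4:**
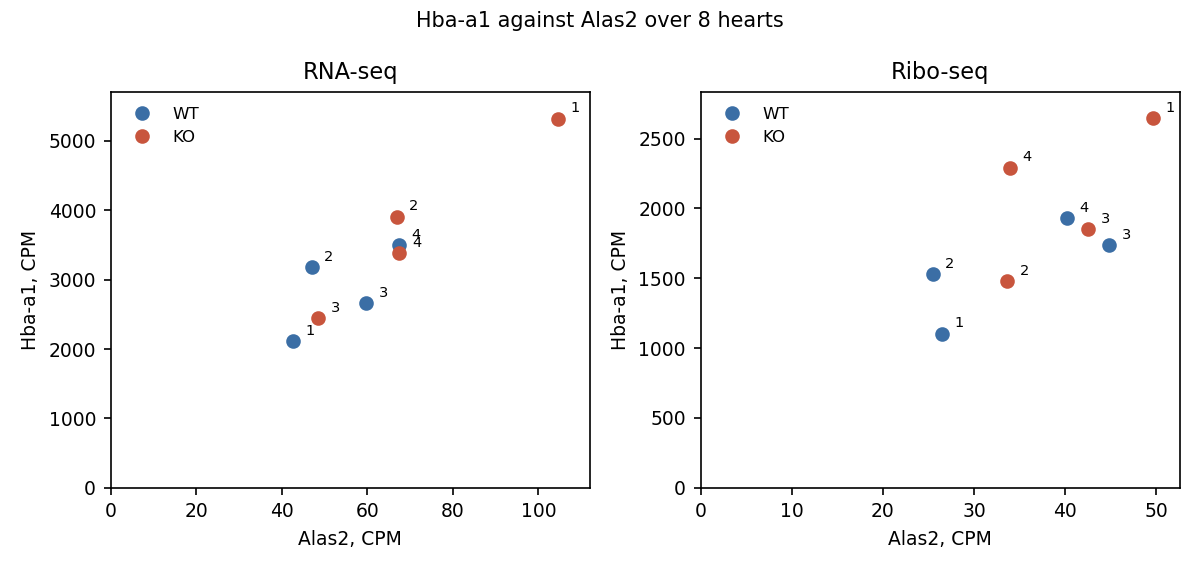
*Hba-a1* is plotted against *Alas2*, both in CPM on linear axes, for the 8 hearts in RNA-seq (left) and Ribo-seq (right), with WT in blue, KO in red and the library number beside each point. KO 1 is at the top right in both panels, and WT 1 is at the bottom left in RNA-seq.

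Levels of the same gene in different assays were compared by heart number. For *Hba-a1*, Ribo-seq and RNA-seq gave r = 0.69 (exact permutation p = 0.0571, adjusted p = 0.0832) and rho = 0.52 (exact permutation p = 0.197, adjusted p = 0.229), and r was -0.15 without KO 1 and WT 1. Without KO 2 and KO 3, whose numbers did not deviate together, r was 0.89 (exact permutation p = 0.0264, n = 6). For *Alas2*, the same relation gave r = 0.68 (exact permutation p = 0.0594, adjusted p = 0.0832) and rho = 0.60 (exact permutation p = 0.132, adjusted p = 0.229), with r = 0.27 without KO 1 and WT 1 and r = 0.85 without KO 2 and KO 3 (exact permutation p = 0.0278, n = 6). Disome-seq and Ribo-seq of *Hba-a1* gave r = 0.79 (exact permutation p = 0.0258, adjusted p = 0.0832) and rho = 0.52 (exact permutation p = 0.197, adjusted p = 0.229). For this relation r was -0.13 without KO 1 and WT 1, so that it was not found without those hearts. Without KO 2 and KO 3 it was 0.95 (exact permutation p = 0.00278, n = 6). For *Alas2*, Disome-seq and Ribo-seq gave r = -0.18 (exact permutation p = 0.658, adjusted p = 0.658) and rho = -0.06 (exact permutation p = 0.897, adjusted p = 0.897). The log2 levels of *Hba-a1* and *Hba-a2* had an r of 1.00 in RNA-seq, which their shared reads fix.

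In C2C12 cells, which grow without blood, alpha globin was at a small fraction of its heart level and *Alas2* mRNA was at 0. *Hba-a1* had 36.1 ± 1.12 CPM in control, 27.9 ± 0.324 CPM in RPL3 OE and 35.1 ± 4.12 CPM in RPL3L OE cells in RNA-seq (SD, n = 3), from 209 to 1111 counts per library. RPL3 OE cells were the lowest, and control and RPL3L OE cells did not differ beyond their spread. The mean of WT hearts was 79.2-fold that of control cells, on scales that were set in each tissue separately. *Alas2* had 0 RNA-seq counts in all 9 libraries, and against the floor of 3 counts over the control group, WT hearts were at least 1081-fold higher.

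In Ribo-seq of C2C12 cells, *Hba-a1* had 71.1 ± 2.71 CPM in control, 48.9 ± 6.84 CPM in RPL3 OE and 55.2 ± 1.78 CPM in RPL3L OE cells (SD, n = 3), and *Alas2* had 0 to 4 counts per library. The order was RPL3 OE, RPL3L OE and control from low to high. The means of the first pair lay within 1 SD of RPL3 OE cells. Their ranges did not overlap, at 41.0 to 53.2 CPM in RPL3 OE and 53.8 to 57.2 CPM in RPL3L OE cells. These are descriptions, and the groups of cells were not tested against each other. The ratio of Ribo-seq to RNA-seq CPM of *Hba-a1* in control cells was 1.97, above 87.2% of 13457 transcripts, whereas in WT hearts it lay above 11.0%. The share of the *Hba-a1* count that exceeded that of *Hba-a2* was 14.6% to 22.0% in RNA-seq of C2C12 cells, against at most 4.67% in that of hearts.

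Other genes of red cells and of heme synthesis were examined on lists of known genes, of which the count table, which holds plus-strand genes, covers only a part. Beta globin genes are not analysed here. Of 14 globin family genes, 5 were in the table, and besides *Hba-a1* and *Hba-a2* these summed to at most 1.79 CPM in any heart in RNA-seq. The 3 others were *Hba-x*, the embryonic alpha globin, with 0 to 2 counts, and the theta globin genes *Hbq1a* and *Hbq1b*, with at most 13 and 11 counts.

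Of 17 heme synthesis genes, 5 were in the table and tested in RNA-seq, and 0 were called in either direction. Their median log2 fold change was 0.09, against 0.00 over all transcripts tested. Beside *Alas2*, *Clpx*, a mitochondrial chaperone that acts on 5-aminolevulinate synthase, had 0.09 (SE 0.12), *Cpox*, coproporphyrinogen oxidase, 0.09 (SE 0.15), *Slc25a38*, a mitochondrial glycine carrier, 0.03 (SE 0.17) and *Tmem14c*, a mitochondrial porphyrin transporter, -0.05 (SE 0.13). In Ribo-seq 0 of 5 were called, with a median of 0.14, and *Slc25a38* had 0.34 (SE 0.18), *Cpox* 0.14 (SE 0.11), *Tmem14c* 0.06 (SE 0.09) and *Clpx* -0.22 (SE 0.11). Of 10 genes of heme and iron handling, 0 were called in RNA-seq (median 0.08) and 0 in Ribo-seq (median -0.08).

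Of 39 red cell genes, 16 were in the table, 9 were tested in RNA-seq and 0 were called, with a median log2 fold change of 0.05. *Bpgm*, which makes 2,3-bisphosphoglycerate in red cells, had 0.22 (SE 0.17), *Car2*, carbonic anhydrase 2, 0.26 (SE 0.30), *Isg20*, an exonuclease, 0.51 (SE 0.26), *Prdx2*, a peroxiredoxin, 0.07 (SE 0.11), and *Ube2l6*, a ubiquitin-conjugating enzyme, 0.05 (SE 0.23). *Rhd*, a blood group antigen, had 0.01 (SE 0.22), and *Ank1*, ankyrin 1, which muscle also makes, -0.02 (SE 0.12). The values of *Rhd* and *Ank1* were nearer to 0 than those of alpha globin, and the difference was not tested. In Ribo-seq, 6 red cell genes were tested and 0 were called, with *Bpgm* at 0.39 (SE 0.28), *Prdx2* at 0.23 (SE 0.09, adjusted p = 0.215 in edgeR), *Rhd* at 0.10 (SE 0.22), *Ube2l6* at -0.01 (SE 0.21) and *Ank1* at -0.05 (SE 0.13).

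Some markers of maturing red cells were near 0 in these hearts. *Klf1*, a transcription factor of red cell precursors, had 0 to 8 counts per heart in RNA-seq, and *Trim10*, which acts in red cell maturation, 0 to 14. The summed level of the 16 red cell genes was 720 to 903 CPM in WT and 778 to 964 CPM in KO hearts, and was made up largely of *Prdx2* and *Ank1*. That of 8 platelet genes was 24.6 to 39.4 CPM in WT and 26.6 to 47.5 CPM in KO hearts, and that of 11 white blood cell genes was 84.2 to 122 CPM in WT and 67.1 to 242 CPM in KO hearts. The last sum includes *Ltf*, lactoferrin of neutrophil granules, which had 0.286 to 46.1 CPM in WT and 0 to 142 CPM in KO hearts. *S100a8*, *Ngp*, *Retnlg* and *Csf3r*, also genes of neutrophils in that sum, had at most 2.94, 1.04, 0.859 and 2.56 CPM in any heart. *Csf1r*, of macrophages, had 47.2 to 72.6 CPM in WT and 49.7 to 65.1 CPM in KO hearts. With *Hba-a1* over the 8 hearts, these sums had an r of 0.46, 0.70 and 0.15 as a description, the values of a heart coming from 1 library. Their part in the differences of alpha globin between hearts was not tested.

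**Figure D5:**
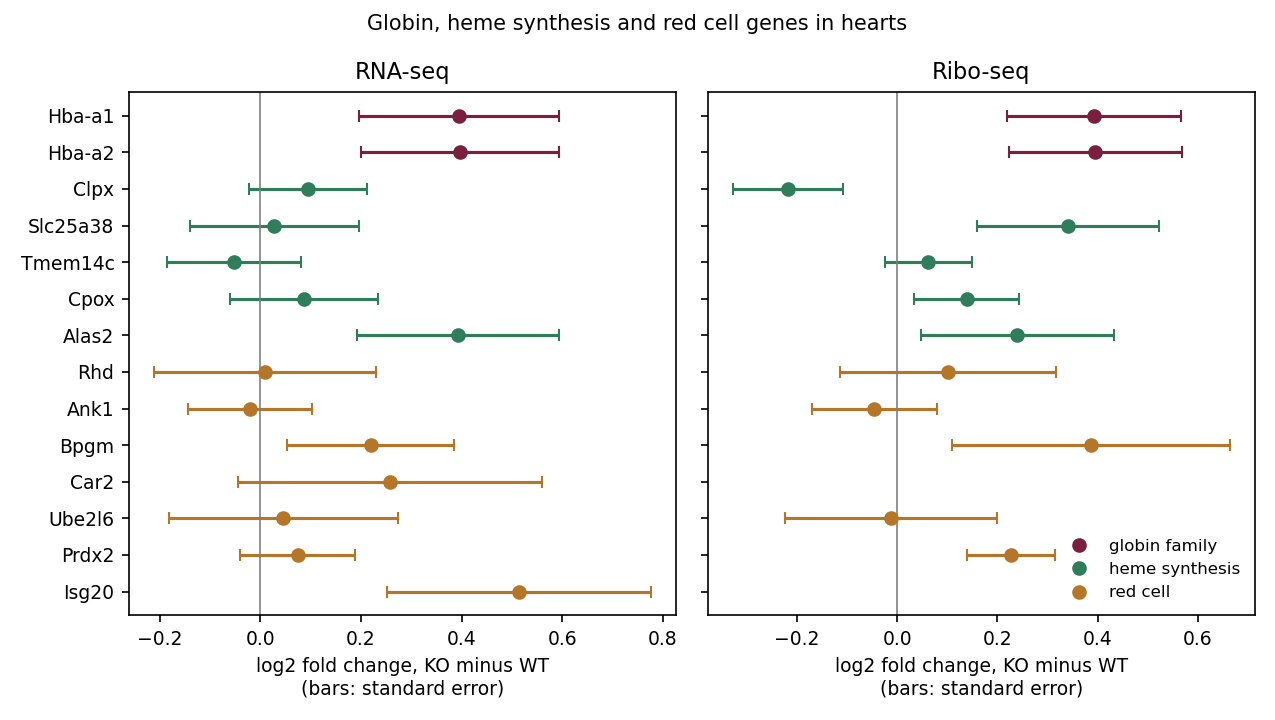
Log2 fold changes of KO over WT with standard errors are shown in RNA-seq (left) and Ribo-seq (right) for the globin, heme synthesis and red cell genes named in the text with a mean RNA-seq count of at least 50. *Hba-a1*, *Hba-a2* and *Alas2* lie near 0.39 in RNA-seq, *Isg20* lies at 0.51, and no gene shown passed the test. *Car2* and *Isg20* have no Ribo-seq point because they did not reach the count filter there.

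The genes whose RNA-seq pattern over the 8 hearts was most like that of *Hba-a1* included 1 gene of the red cell list, *Bpgm*. By Pearson's r of log2 CPM among 4916 genes, they were *Hand2* (r = 0.91), *Bpgm* (0.89), *Rwdd4a* (0.87), *Ncaph2* (0.87), *Klhl40* (0.87), *Llgl2* (0.86), *Arfgap1* (0.86), *Bag3* (0.85), *Sde2* (0.85) and *Fn3k* (0.85). The median r of all genes was 0.03 and the 99th percentile 0.75. In Ribo-seq, *Bpgm* had an r of 0.78 with *Hba-a1*, *Fn3k* 0.73, *Klhl40* 0.70 and *Bag3* 0.70, whereas the other 6 had -0.45 to 0.50. Of the 10, *Hand2* is a transcription factor of heart development, and *Bag3* is a cochaperone of cardiomyocytes.

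Most like *Alas2* were *Bag3* (r = 0.92), *Ephb3* (0.90), *Hand2* (0.88), *Tmbim6* (0.87), *Rad23b* (0.86), *Abcf3* (0.85), *Lap3* (0.84), *Dffa* (0.84), *Rufy3* (0.83) and *Gpr153* (0.83). *Bag3* and *Hand2* were on both lists of 10. In Ribo-seq, the r of these genes with *Alas2* lay between -0.36 and 0.55, with no value for *Gpr153*, which had too few counts.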

How the data were processed

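RNA-seq, Ribo-seq and Disome-seq of 8 hearts and RNA-seq and Ribo-seq of 9 C2C12 cultures entered. Libraries of m6A-seq and tRNA-seq were left aside, being not analysed here. The values are unnormalized counts that the authors deposited for each transcript. For Ribo-seq and Disome-seq, they clipped adaptors (cutadapt), discarded poor and rRNA reads, mapped the rest to GRCm38.p6 and mm10 with STAR, keeping multiple mappings, collapsed duplicates by UMI and counted (featureCounts). RNA-seq libraries were made with a directional kit. Separate read processing for RNA-seq, program versions and how strand entered the counting are not given in the sources used here. Of the 47754 lines, which hold every transcript as an identical pair, 1 per transcript was kept. GENCODE M21 matched 23662 of 23877 transcripts, all on the plus strand, and genes of the minus strand are not analysed here. Both Disome-seq samples of a replicate number were added up as runs of 1 heart, which the labels do not state. Libraries of a group are described by the study as separate mice or cultures.

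EdgeR 4.0.16 (quasi-likelihood test, R 4.3.3, limma 3.58.1) was run with TMM scaling by assay on transcripts averaging 10 counts or more in every assay used, with Benjamini-Hochberg adjustment over all transcripts tested (adjusted p under 0.05). TE and disomes relative to Ribo-seq were the interaction of genotype and assay. Levels are TMM-scaled CPM, and 1 CPM was added before log2 in relations and permutation tests, which enumerated all arrangements (Python 3.11.15, NumPy 2.4.6). Library totals and the spread between hearts limit precision; floors cover counting error only.

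The members and the gene lists were chosen with earlier results of these data known. Named genes are the members, the genes of the red cell, globin and heme synthesis lists with a mean RNA-seq count of at least 50, and the 10 genes most like *Hba-a1* and *Alas2* among genes with such a count, and some list genes are not reported here. *Klf1*, *Trim10*, *Ltf*, *S100a8*, *Ngp*, *Retnlg*, *Csf3r*, *Csf1r*, *Hba-x*, *Hbq1a* and *Hbq1b* were named after their values were seen. Ribo-seq and Disome-seq libraries of the same number deviated together (correlations 0.13 to 0.43 in 8 hearts), and the numbers come from the labels. Alternatives were other count filters, library totals, DESeq2 1.42.0, a replicate block, 1 transcript per gene, summed alpha globin counts, single Disome-seq runs, each heart left out and, added later, KO 2 and KO 3 left out.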

Additional observations from a re-analysis of the deposited data

Results flagged for a closer look

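Values of the members were searched for a heart standing far from the other 3 of its genotype (Dixon's test at the 95% level), in 30 groups of 4 hearts, of which chance would flag about 1 in 20. For *Hba-a2* Disome-seq, WT 1 was far below the other WT hearts at 210 CPM, against 539 to 599 CPM. The 2 Disome-seq runs of WT 1 also differed beyond counting noise. For the ratio of Ribo-seq to RNA-seq of *Alas2*, KO 3 was far above the other KO hearts at 0.877, against 0.475 to 0.503, and its libraries of the same number did not deviate together.

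In control C2C12 cells, outside the comparison of genotypes, *Hba-a1* was above the limit that a count of 0 allows, at a mean of 36.1 CPM in RNA-seq and 71.1 CPM in Ribo-seq.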

How the results depend on the processing

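No alternative brought a member past the threshold, and every RNA-seq, Ribo-seq and Disome-seq change of a member stayed above 0. The number of transcripts called was less stable. In RNA-seq it was 11 with DESeq2 and 1 with 1 transcript per gene. In Ribo-seq it was 63 with a total of at least 10 counts, 185 with DESeq2, 6 with 1 transcript per gene, 21 without KO 2 and KO 3, and 17 to 59 with 1 heart left out. For TE it was 22 with DESeq2 and 1 without KO 2 and KO 3. In Disome-seq it was 3 with a total of at least 10 counts, 2 with the replicate block, 2 with alpha globin counts summed, 2 with only run 2 and 0 to 3 with 1 heart left out. Relative to Ribo-seq it was 25 with DESeq2. The causes were not tested.

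The TE change of *Hba-a1* and *Hba-a2*, near 0, turned to above 0 with a mean count of at least 50 (0.0024 and 0.0022), with the replicate block (0.023 and 0.025), and without KO 2 and KO 3 (0.053 and 0.050). With 1 heart left out it ranged from -0.11 to 0.15 for *Hba-a1* and from -0.11 to 0.15 for *Hba-a2*.

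WT and KO libraries of the same number did not all deviate together (correlations -0.40 to -0.13 in RNA-seq, -0.43 to 0.53 in Ribo-seq and -0.35 to 0.21 in Disome-seq), and the numbers were not taken to pair the genotypes. The replicate block left 2 transcripts called in RNA-seq, 109 in Ribo-seq and 0 for TE. For disomes relative to Ribo-seq, where equal numbers were taken as 1 heart, which the labels do not state, it changed no call (0.40 for *Hba-a1*, 0 transcripts called).

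The relation of *Hba-a1* to *Alas2* lost its p under 0.05 without the 2 farthest hearts (r = 0.65 in RNA-seq, 0.45 in Ribo-seq) and, in Ribo-seq, without KO 2 and KO 3 (0.74). Ribo-seq against RNA-seq gained it with library totals (r = 0.83 for *Hba-a1*, 0.79 for *Alas2*) and without KO 2 and KO 3 (0.89 and 0.85). Without the 2 farthest hearts, *Hba-a1* r reversed for Ribo-seq against RNA-seq (-0.15) and Disome-seq against Ribo-seq (-0.13). *Alas2* disomes passed only the filter on a total of 10 counts, with a change of 1.52 (adjusted p = 1.00 in edgeR).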
